A study of Mus musculus with 8 samples.

Results

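The 10 genes described here serve the recycling of iron by red pulp macrophages, the splenic macrophages that take up old red blood cells. They were picked by name for their part in that pathway, through the symbols that GENCODE M21 (GRCm38) gives to the Ensembl identifiers of the count table, and all 10 were found among its 51826 genes. Their mRNA was sequenced in total splenocytes from female Balb/c mice aged 3 months, 4 treated with all-trans-retinoic acid (tRA), an active form of vitamin A, and 4 controls. The tRA mice were dosed by mouth each day since weaning at 1 mg/kg, and the dosing section of the study describes canola oil as the vehicle for controls. No mouse was injected with pristane, the oil used elsewhere in the study to induce lupus. The sample labels carry the 1 mg/kg tRA text for all 8 samples, so the groups follow the sample titles. The libraries are numbered 1 to 4 in each group and are treated here as separate mice. Tests between the groups set the difference against the spread between these libraries, and correlations run over the 8 libraries.

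Red pulp macrophages engulf aged erythrocytes, break down their heme, and either store the freed iron in ferritin or return it to the plasma through ferroportin. The transcription factor SPI-C is needed for these cells to form, and heme induces its gene by relieving repression by BACH1. Iron regulatory proteins bind iron-responsive elements in mRNA and thereby set the translation of ferritin and ferroportin and the stability of the transferrin receptor mRNA, so ferritin protein can change while its mRNA does not, and protein was not analysed here. Spleens were made into a cell suspension and erythrocytes were lysed before RNA was extracted, and the share of red pulp macrophages that such a suspension keeps was not measured.

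Total counts on genes ranged from 30919272 to 37539631 in the control libraries and from 31810417 to 35165876 in the tRA libraries. Levels are given as CPM, each count divided by the TMM-scaled library size, and fold changes are tRA over control on the log2 scale. The lowest count of any of the 10 genes in any library was 181, and all 10 passed the filter on low counts that left 16484 genes to test. B cell and T cell genes marked the tissue as splenocytes, with summed levels of 5473 ± 445 CPM (SD, n = 4) and 1069 ± 109.8 CPM (SD, n = 4) over 6 genes each in the control mice.

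None of the iron recycling genes was called between tRA and control. In the quasi-likelihood test of edgeR, Benjamini-Hochberg adjusted, 0 of the 10 genes had an FDR under 0.1, against 0% of the 16484 genes tested, and their FDRs lay between 0.761 and 0.995. At an unadjusted p under 0.05 the count was 0 of 10 by edgeR, where 1070 genes, or 6.49%, passed among all genes tested. DESeq2 called 0 of the 10 genes and 27 genes in all, or 0.197%, at an FDR under 0.1. It gave 2 of the 10, Fth1 and Ftl1, an unadjusted p under 0.05, as it did 1247 of the 29805 genes with a p, or 4.18%, genes with low counts included. In the other alternatives that count ranged from 0 to 2. Fth1 and Ftl1 passed without a filter on low counts, where 5.34% of all genes did, without control mouse 4, where 6.35% did, and without tRA mouse 1, where 12.6% did. For 0 of the 10 genes did the 4 tRA mice lie wholly above or below the 4 control mice, against 3.54% of all genes tested. The log2 fold change was positive for 2 genes and negative for 8, with a median of -0.076 beside 0.0014 over all genes tested. In bulk RNA, fewer cells of a type and less RNA per cell cannot be told apart.

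**Figure D1:**
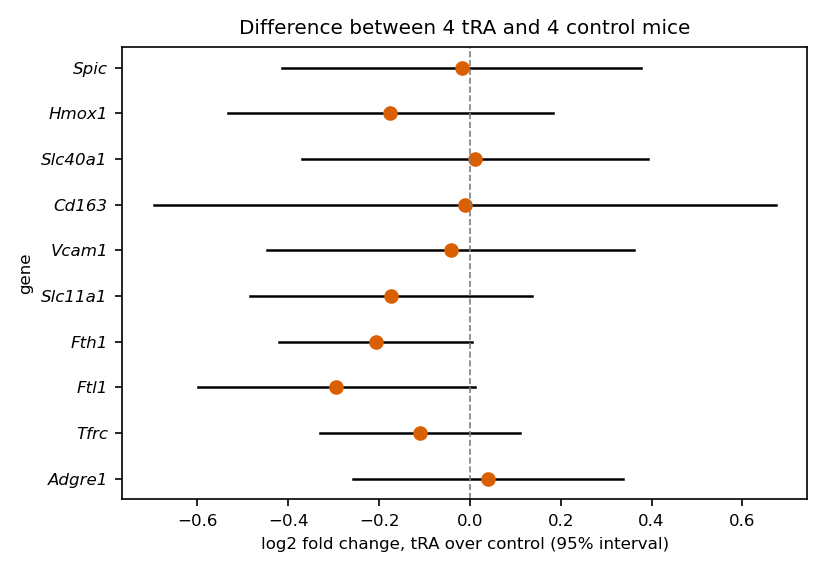
Log2 fold change of each of the 10 genes, tRA over control, on the horizontal axis, with points for the estimate and lines for the 95% interval from edgeR's fit of 4 tRA and 4 control mice. All 10 intervals include 0, and those of Fth1 (-0.42 to 0.0047) and Ftl1 (-0.60 to 0.010) reach it only at their upper end.

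The factor that defines the red pulp macrophage, Spic (ENSMUSG00000004359), lies on the minus strand of chromosome 10 from 88674772 to 88685015. Its level was 39.6, 58.0, 48.6 and 33.1 CPM in control mice 1 to 4 and 37.6, 47.5, 55.5 and 36.4 CPM in tRA mice 1 to 4. The groups overlapped almost fully, with the highest value in control mouse 2, the next in tRA mouse 3 and the lowest in control mouse 4. The means were 44.8 ± 10.9 CPM (SD, n = 4) in control and 44.2 ± 9.004 CPM (SD, n = 4) in tRA. The log2 fold change was -0.018 with a standard error of 0.18 (FDR 0.990, edgeR's quasi-likelihood test, Benjamini-Hochberg adjusted). Its 95% interval ran from -0.41 to 0.38, so the data bound the tRA level between 0.751 and 1.30 times the control level.

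Hmox1 (ENSMUSG00000005413, plus strand of chromosome 8, 75093621 to 75100589) encodes heme oxygenase 1, which opens the heme ring and frees its iron. It was measured at 183, 226, 164 and 126 CPM in control mice 1 to 4 and at 130.0, 163, 184 and 143 CPM in tRA mice 1 to 4. Control mouse 2 was again the highest of all and control mouse 4 the lowest, while tRA mouse 3 was the highest of its group. Group means were 174.9 ± 41.5 CPM (SD, n = 4) in control and 154.8 ± 23.8 CPM (SD, n = 4) in tRA. Between the groups the log2 fold change was -0.18 (standard error 0.16, 95% interval -0.53 to 0.18, FDR 0.849 by the quasi-likelihood test of edgeR, Benjamini-Hochberg adjusted). It was -0.029 without control mouse 2 and -0.30 without control mouse 4.

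Iron leaves the macrophage through ferroportin, the only known cellular iron exporter, which is encoded by Slc40a1 (ENSMUSG00000025993, minus strand of chromosome 1, 45908068 to 45926523). Its level was 105.6, 132, 89.3 and 75.9 CPM in control mice 1 to 4 and 78.2, 94.3, 119 and 114 CPM in tRA mice 1 to 4. The extremes of both groups were control mouse 2 and control mouse 4, and the tRA values all lay between them. Slc11a1 (ENSMUSG00000026177, plus strand of chromosome 1, 74375195 to 74386062) encodes NRAMP1, which moves iron out of the phagosome into the cytosol. It stood at 35.8, 60.8, 47.1 and 42.1 CPM in control mice 1 to 4, and at 36.5, 42.4, 42.8 and 43.0 CPM in tRA mice 1 to 4. The tRA values were closely spaced apart from mouse 1, and all fell inside the control range. The log2 fold changes were 0.011 (standard error 0.17) for Slc40a1 and -0.17 (standard error 0.14) for Slc11a1, with FDRs of 0.993 and 0.825 from edgeR's quasi-likelihood test, Benjamini-Hochberg adjusted. For Slc11a1 it was -0.016 without control mouse 2 and -0.28 without control mouse 1.

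Cd163 (ENSMUSG00000008845, plus strand of chromosome 6, 124304656 to 124330527) encodes the macrophage scavenger receptor for hemoglobin bound to haptoglobin. Control mice 1 to 4 had 13.8, 18.4, 14.4 and 11.9 CPM, whereas tRA mice 1 to 4 had 5.53, 17.3, 20.7 and 14.5 CPM. tRA mouse 1 was far below every other mouse and tRA mouse 3 above every other mouse, so that the tRA group enclosed the control group. The SD between mice within groups was 0.62 on the log2 scale, larger than for 93.6% of the genes tested, against a median of 0.19 over all genes. Without tRA mouse 1 the log2 fold change moved from -0.011 to 0.26 with a standard error of 0.16. The FDR was then 0.536 by edgeR's quasi-likelihood test, Benjamini-Hochberg adjusted, and it ranged from 0.536 to 1.000 over all alternatives for Cd163.

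Vcam1 (ENSMUSG00000027962, minus strand of chromosome 3, 116109949 to 116129688) encodes an adhesion molecule that red pulp macrophages carry in common with endothelial cells. It was found at 120.8, 121.3, 97.0 and 94.0 CPM in control mice 1 to 4 and at 66.5, 115, 136 and 102.6 CPM in tRA mice 1 to 4. As for Cd163, tRA mouse 1 was the lowest and tRA mouse 3 the highest of the 8 mice. Its exons share 61 bases with those of Gm43109, an antisense gene, and whether the counting used the strand is not given in the sources used here. Adgre1 (ENSMUSG00000004730, plus strand of chromosome 17, 57358691 to 57483527) encodes F4/80, a surface receptor that is high on red pulp macrophages. It was at 26.3, 34.3, 29.96 and 30.1 CPM in control mice 1 to 4, and at 22.8, 32.9, 36.3 and 31.9 CPM in tRA mice 1 to 4. The same tRA mice, 1 and 3, held the lowest and the highest value. The log2 fold changes were -0.043 (standard error 0.18) for Vcam1 and 0.040 (standard error 0.13) for Adgre1, with FDRs of 0.977 and 0.969 from edgeR's quasi-likelihood test, Benjamini-Hochberg adjusted. With single mice left out, the sign of the fold change turned for Spic, Slc40a1, Cd163, Vcam1 and Adgre1, whose estimates were all within 0.05 of 0, and it turned for Spic and Cd163 when library size alone was used for scaling.

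**Figure D2:**
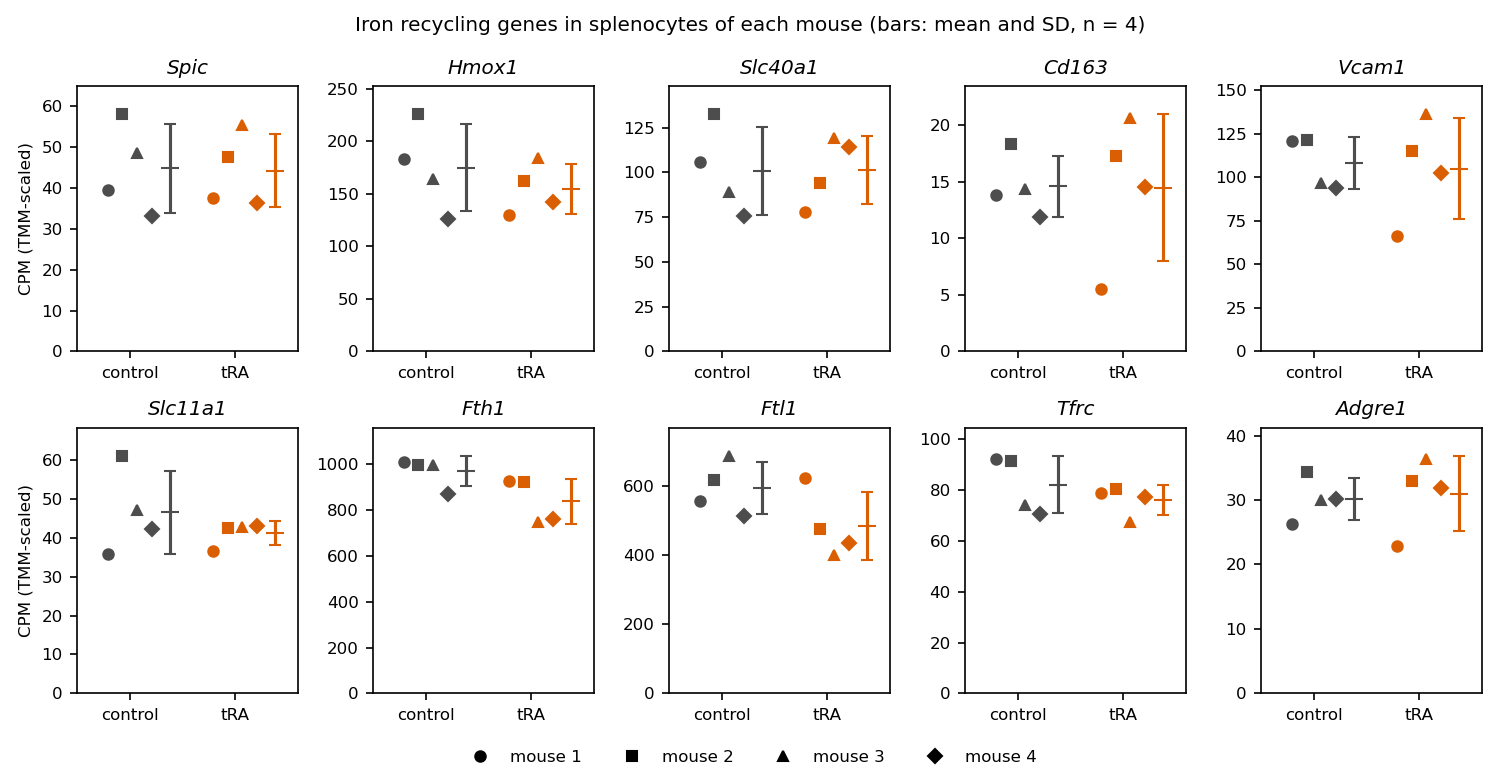
Level of each of the 10 genes in CPM on the vertical axis, 1 panel per gene, with a symbol for each mouse and bars for the mean and SD of the 4 control and 4 tRA mice. The symbols number the mice within a group and do not pair mice between groups. For Spic, control mouse 2 (58.0 CPM) and tRA mouse 3 (55.5 CPM) stand highest, and for Cd163 tRA mouse 1 (5.53 CPM) stands lowest.

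Ferritin, the shell in which iron is stored, is built from a heavy chain that oxidizes iron and a light chain that helps it to mineralize. Fth1 (ENSMUSG00000024661, plus strand of chromosome 19, 9980598 to 9985098) encodes the heavy chain, and its level was 1007, 996, 996 and 869 CPM in control mice 1 to 4 and 926, 919, 747 and 758 CPM in tRA mice 1 to 4. Only control mouse 4 came within the tRA range, and tRA mice 3 and 4 were below every other mouse. The means were 967 ± 65.4 CPM (SD, n = 4) in control and 837 ± 98.3 CPM (SD, n = 4) in tRA. The log2 fold change was -0.21 (standard error 0.096, 95% interval -0.42 to 0.0047), with an unadjusted p of 0.0544 and an FDR of 0.761 in the quasi-likelihood test of edgeR, Benjamini-Hochberg adjusted.

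Ftl1 (ENSMUSG00000050708, minus strand of chromosome 7, 45457944 to 45459884) encodes the light chain. Its level was 556, 617, 685 and 514 CPM in control mice 1 to 4 and 623, 476, 401 and 436 CPM in tRA mice 1 to 4. tRA mice 2, 3 and 4 were below all controls, while tRA mouse 1 was above all controls but mouse 3. The means were 593 ± 74.7 CPM (SD, n = 4) in control and 484 ± 97.6 CPM (SD, n = 4) in tRA. This gave a log2 fold change of -0.29 (standard error 0.14, 95% interval -0.60 to 0.010), with an unadjusted p of 0.0570 and an FDR of 0.762 in edgeR's quasi-likelihood test, Benjamini-Hochberg adjusted. Without tRA mouse 1 it was -0.44 with an unadjusted p of 0.00212 and an FDR of 0.216 in edgeR's quasi-likelihood test, Benjamini-Hochberg adjusted, and the FDR over all alternatives for Ftl1 ranged from 0.216 to 1.000. At the other end of the single mice left out, it was -0.21 with an unadjusted p of 0.145 without tRA mouse 3.

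Named ferritin pseudogenes and paralogs held few reads. Of the counts summed over the 8 libraries, Fth1 had 242435 and Fth-ps2 had 44, while Ftl1 had 144504 and Ftl1-ps1 had 433, and adding these and the other genes of the same names left the log2 fold changes at -0.21 and -0.29. How reads that match several of these genes were counted is not given in the sources used here. Ftl1 also shares 355 exonic bases with Gm10252 on the other strand and 109 with the microRNA gene Gm22133 on the same strand, and reads from the shared bases cannot be told apart.

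The share of the heavy chain in the ferritin counts, Fth1 over the sum of Fth1 and Ftl1, does not depend on library size. It was 64.4%, 61.7%, 59.3% and 62.9% in control mice 1 to 4 and 59.8%, 65.9%, 65.1% and 63.5% in tRA mice 1 to 4. Each Wilson 95% interval reached at most 0.477 percentage points to either side, which covers counting error only. The groups overlapped, with control mouse 3 and tRA mouse 1 lowest. The mean was 62.1% ± 2.18 (SD, n = 4) in control and 63.6% ± 2.70 (SD, n = 4) in tRA, a difference of 1.498 percentage points, which was 0.559 without control mouse 3 and 2.76 without tRA mouse 1. By a two-sided exact permutation test p was 0.4, where the smallest p that 4 against 4 mice allow is 0.0286.

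Neither ferritin chain was called, and negative log2 fold changes were not limited to them. All 80 ribosomal protein genes tested, a list taken by symbol after seeing the data, had negative log2 fold changes, with a median of -0.28 and a range from -0.57 to -0.089 that holds the values of both ferritin chains. Of these genes 38 had an unadjusted p under 0.05 by edgeR and 43 by DESeq2, beside 6.49% and 4.18% of all genes, and 0 and 1 were called. Their summed level was 49550, 42496, 53729 and 45393 CPM in control mice 1 to 4 and 49122, 39365, 33039 and 37031 CPM in tRA mice 1 to 4. As for Ftl1, tRA mice 2, 3 and 4 were below all controls and tRA mouse 1 was not. After subtraction of group means, r between the log2 of this sum and the log2 level was 0.837 for Ftl1, 0.688 for Fth1 and -0.40 for Spic. The most abundant of them, Rpl4, a protein of the large subunit, was at 2229 ± 189 CPM (SD, n = 4) in control and 2002 ± 235 CPM (SD, n = 4) in tRA.

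A list for the respiratory chain and ATP synthase, also taken by symbol after seeing the data, includes the Ndufaf assembly factors. Of its genes, 77 of 84 had a negative log2 fold change, with a median of -0.17. By edgeR 26 had an unadjusted p under 0.05 and 0 were called, and by DESeq2 25 and 1. Their summed level was 4889, 4470, 5197 and 4460 CPM in control mice 1 to 4 and 4735, 4264, 3933 and 3985 CPM in tRA mice 1 to 4, and the groups overlapped through tRA mouse 1. The most abundant, Atp5b, the beta subunit of ATP synthase, was at 509.6 ± 7.80 CPM (SD, n = 4) in control and 477 ± 19.8 CPM (SD, n = 4) in tRA. Over all protein-coding genes tested, the median log2 fold change rose with exon length. It was -0.18 in 323 genes of up to 1 kb and -0.11 in 1456 genes of 1 to 2 kb. In 2048 genes of 2 to 3 kb it was -0.056. It reached -0.0049 in 3750 genes of 3 to 5 kb and 0.037 in 5569 genes over 5 kb. The exons of Ftl1 cover 1340 bases, which is in the bin of 1 to 2 kb. Those of Fth1 cover 3469, in the bin of 3 to 5 kb, where the median was near 0. Which part of the ferritin fold changes goes with this relation to exon length was not tested, and neither was the source of the relation.

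Tfrc (ENSMUSG00000022797, plus strand of chromosome 16, 32608920 to 32632794) encodes the transferrin receptor, through which dividing and erythroid cells import iron from the plasma. Its level was 92.1, 91.3, 74.3 and 70.6 CPM in control mice 1 to 4 and 79.0, 80.5, 67.5 and 77.2 CPM in tRA mice 1 to 4. Control mice 1 and 2 stood above all tRA mice and the others were interspersed. Between tRA and control the log2 fold change was -0.11 (standard error 0.0999, 95% interval -0.33 to 0.11, FDR 0.848 by the quasi-likelihood test of edgeR, Benjamini-Hochberg adjusted). With single mice left out it ranged from -0.18 to -0.050.

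Per kilobase of exon, the ferritin chains were by far the most abundant of these mRNAs. Over the 8 mice the level was 402 ± 74.2 CPM per kb (SD, n = 8) for Ftl1, 260.1 ± 29.9 CPM per kb (SD, n = 8) for Fth1 and 94.1 ± 18.9 CPM per kb (SD, n = 8) for Hmox1, and the ranges of these 3 genes did not overlap. Tfrc, Vcam1, Slc11a1, Spic, Slc40a1 and Adgre1 followed between 12.8 and 9.45 CPM per kb, and the range of each overlapped that of its neighbour in this order. Cd163 was the lowest at 2.67 ± 0.843 CPM per kb (SD, n = 8), below the range of Adgre1. Without division by exon length Fth1 stood above Ftl1, at means of 902 and 538 CPM over the 8 mice. The order of the ferritin chains thus depends on the exon lengths used, 3469 bases for Fth1 and 1340 for Ftl1. Ferritin is made by most cells, and B cells and T cells outnumber macrophages in the spleen, so its level in total splenocytes is not a level in macrophages.

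Which mRNAs of this group carry the elements that bind iron regulatory proteins was read from the transcript sequences of GENCODE M21, because this control is not seen in mRNA counts of the ferritins and ferroportin. An iron-responsive element is a hairpin with a CAGTGN loop, a stem of 5 base pairs under it and an unpaired C below that. In the 5′ UTR it blocks translation when iron is scarce, and in the 3′ UTR of the transferrin receptor it protects the mRNA from decay. The letters CNNNNNCAGTG were searched on the transcript strand, and a match was counted as having a full stem where the 5 bases on either side of the loop paired, G with U allowed. A 5′ UTR match with a full stem was found in 31 of 20048 protein-coding genes with a 5′ UTR of at least 30 bases, or 0.155%, and 3 of the 10 genes described here were among them, Fth1, Ftl1 and Slc40a1. In 3′ UTRs such a match was found in 129 of 20857 genes, or 0.618%, and in 1 of the 10 genes, Tfrc, which had 4. The letters alone, without the stem, were found in 12.8% of 5′ UTRs and 36.2% of 3′ UTRs, and in 4 and 5 of the 10 genes.

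The matches lie at chr19:9982732-9982761 on the plus strand for Fth1, chr7:45459778-45459807 on the minus strand for Ftl1, chr1:45925464-45925493 on the minus strand for Slc40a1, and chr16:32631219-32631248 and chr16:32631710-32631739 on the plus strand for the outermost of the 4 in Tfrc (GRCm38). They are shown 5′ to 3′ in DNA letters, with the searched letters in capitals, so that the paired bases on both sides of the loop can be followed.
Fth1: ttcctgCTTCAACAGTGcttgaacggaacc
Ftl1: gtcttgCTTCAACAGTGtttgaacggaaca
Slc40a1: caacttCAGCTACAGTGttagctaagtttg
Tfrc, position 892 of the 3′ UTR: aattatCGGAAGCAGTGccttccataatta
Tfrc, position 1383 of the 3′ UTR: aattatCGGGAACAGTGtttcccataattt
The Fth1 and Ftl1 windows had the same base at 26 of 30 positions and at all 11 in capitals. A match is a description of these letters and was not tested as a site in splenocytes.

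Several of the 10 genes were at their highest or lowest in the same mouse. Of the 10 genes, 7 were at their highest among controls in control mouse 2 and 8 at their lowest in control mouse 4. In the tRA group, 6 were highest in mouse 3, and 6 were lowest in mouse 1. The same counts over all genes tested are not given here, so these are not shown to be particular to the 10 genes. Fth1, Ftl1 and Tfrc were at their lowest in control mouse 4, as were Spic, Hmox1, Slc40a1, Cd163 and Vcam1, and in tRA mouse 3, where Spic, Hmox1, Slc40a1, Cd163, Vcam1 and Adgre1 were at their highest of the group.

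Over the 8 mice, the log2 level of Hmox1 correlated with that of Spic, with Pearson's r = 0.847 (exact permutation p = 0.00977) and Spearman's rho = 0.905 (exact permutation p = 0.00456). This was 1 of 9 relations with Spic, and with Benjamini-Hochberg adjustment over the 9 relations the exact permutation p-values became 0.0879 for r and 0.0411 for rho. Without control mice 2 and 4, the mice farthest from the median of Spic, r was 0.660. Leaving out the extremes of Spic narrows its range, so this value does not show what the relation rests on. After subtraction of the group means r was 0.882, which ranked 71 among 12631 genes over 1 CPM in every library, of which 221 had an r over 0.8.

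Pearson's r with Spic was 0.649 for Slc40a1 (exact permutation p = 0.0861), 0.647 for Slc11a1 (exact permutation p = 0.0672) and 0.628 for Cd163 (exact permutation p = 0.0670). Spearman's rho was 0.667 (exact permutation p = 0.0831), 0.571 (exact permutation p = 0.151) and 0.738 (exact permutation p = 0.0458) for the same 3 genes. For Adgre1 and Vcam1, r was 0.611 (exact permutation p = 0.109) and 0.599 (exact permutation p = 0.107), and rho was 0.548 (exact permutation p = 0.171) and 0.714 (exact permutation p = 0.0576). Adjusted over the 9 relations, the exact permutation p was 0.163 for r in each of these 5 genes and between 0.173 and 0.256 for rho, so none passed 0.1. Without control mice 2 and 4, r was 0.242 for Slc40a1, 0.559 for Slc11a1, 0.643 for Cd163, 0.680 for Adgre1 and 0.575 for Vcam1. The range of Spic is narrowed here too, so these values do not show what the relations rest on.

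For the iron storage and uptake genes the correlations were weak. Pearson's r with Spic was 0.129 for Fth1 (exact permutation p = 0.743), 0.119 for Tfrc (exact permutation p = 0.765) and 0.0386 for Ftl1 (exact permutation p = 0.926). Spearman's rho was 0.214 (exact permutation p = 0.619), 0.143 (exact permutation p = 0.752) and 0.119 (exact permutation p = 0.793), and all adjusted values were at least 0.793. Without control mice 2 and 4, r was -0.14, -0.62 and -0.23.

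**Figure D3:**
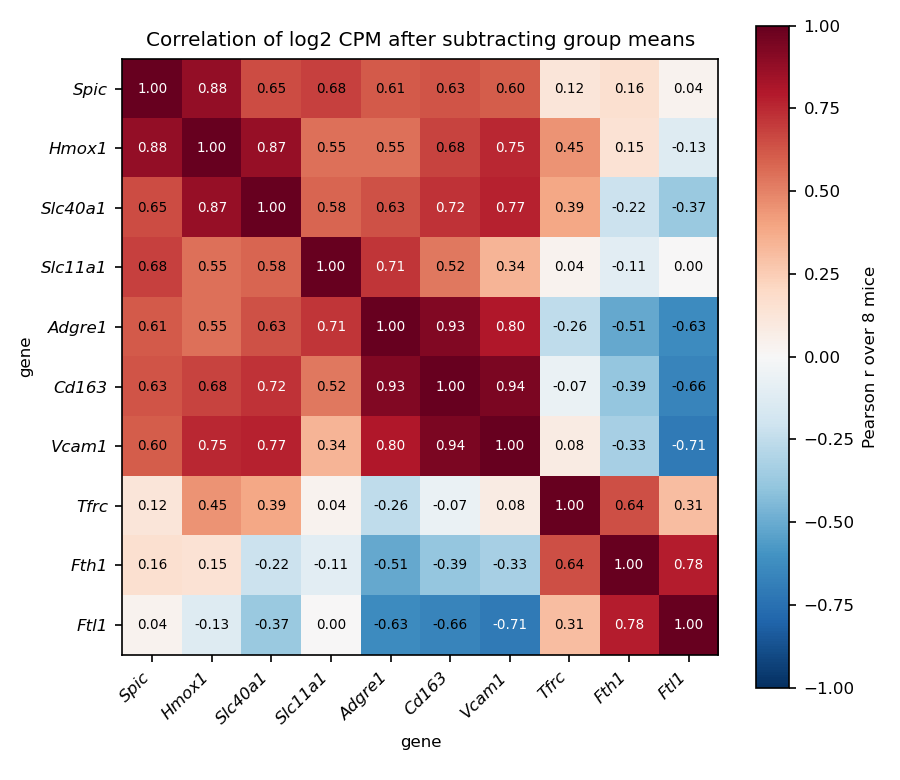
Pearson's r between the log2 CPM of each pair of the 10 genes over the 8 mice, after subtraction of the group means, on a color scale from -1 to 1 with genes on both axes. Spic, Hmox1, Slc40a1, Slc11a1, Adgre1, Cd163 and Vcam1 form a block of positive values (Cd163 with Vcam1 at 0.94), Fth1 and Ftl1 pair with each other at 0.78, and Ftl1 with Vcam1 is at -0.71.

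The 5 genes most like Spic over the 8 mice, by r after subtraction of group means, were Psmd3 (0.991), a proteasome subunit, Cib2 (0.972), a calcium-binding protein, Fgf1 (0.971), a growth factor, Naglu (0.965), a lysosomal enzyme, and Cdk5rap3 (0.962). Without that subtraction r was 0.985 for Psmd3, 0.947 for Cib2, 0.644 for Fgf1, 0.964 for Naglu and 0.949 for Cdk5rap3. For Fgf1 the log2 fold change was -0.58 (standard error 0.23, FDR 0.757 by edgeR's quasi-likelihood test, Benjamini-Hochberg adjusted). The range of Psmd3 was narrow, from 109.5 to 121 CPM, and Cib2 and Fgf1 were low, at mean levels of 2.14 and 1.59 CPM.

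Erythroid genes mark the red cell precursors of the spleen. Over 13 erythroid genes the median r with Spic after subtraction of group means was 0.836, against -0.011 over all genes, and over 13 other splenic macrophage markers it was 0.733. Other lists were above that of all genes too, with 0.670 over 4 marginal zone macrophage markers, 0.585 over 5 endothelial and stromal markers and 0.512 over 8 proliferation markers. For the wider pathway it was 0.420 over 8 genes of heme breakdown and transport, 0.066 over 19 of iron transport, storage and sensing and -0.24 over 11 regulators and targets of heme and oxidative stress. It was 0.213 over 9 monocyte, 0.108 over 7 dendritic cell, 0.106 over 6 B cell and -0.018 over 11 neutrophil markers. For the immediate early and heat shock genes it was -0.23, and it was lowest for the T cell markers at -0.32. Summed over the list, erythroid levels were 880.2, 1670.4, 2526.5 and 546 CPM in control mice 1 to 4 and 2347, 692, 3800.5 and 655 CPM in tRA mice 1 to 4. Both groups covered a wide range and overlapped, with tRA mouse 3 highest and control mouse 4 lowest. Not every mouse followed its Spic level, since tRA mouse 1 had the third highest sum with Spic at 37.6 CPM, and tRA mouse 2 had a lower sum than tRA mouse 1 with Spic at 47.5 CPM. The most abundant erythroid gene, Hbb-bs, a beta globin, was at 837 ± 549.8 CPM (SD, n = 4) in control and 1142 ± 936 CPM (SD, n = 4) in tRA. Of the 14 genes of the list, Ahsp was not analysed here and none of the others was at 0, and the part of erythroid RNA in the relation with Spic was not tested.

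With the Spic level added to the edgeR fit, an alternative chosen after seeing the data, 0 of the other 9 genes were called and 0 had an unadjusted p under 0.05. Of the 16484 genes tested in that fit, 0 were called and 949, or 5.76%, had such a p. The standard error of the Hmox1 fold change was then 0.584 times its former size, at a log2 fold change of -0.16 (standard error 0.094, 95% interval -0.37 to 0.054). For Fth1 and Ftl1 the fold changes stayed at -0.21 and -0.29, and the standard errors were 1.06 times as large.

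Other markers of splenic macrophages were compared in the same way. Of the 13 markers, 0 passed an FDR of 0.1 in edgeR or DESeq2 and 0 had an unadjusted p under 0.05 in either. Such a p was found for 6.49% of all genes by edgeR and 4.18% by DESeq2, shares that also stand beside the marginal zone count below. The log2 fold change was positive for 2 markers and negative for 11, with a median of -0.12. Csf1r, the receptor for the macrophage growth factor CSF1 and the most abundant of them, was at 177 ± 34.9 CPM (SD, n = 4) in control and 179.9 ± 37.8 CPM (SD, n = 4) in tRA. The summed level was 879, 1208, 897 and 810.3 CPM in control mice 1 to 4 and 670.4, 927, 1066 and 895 CPM in tRA mice 1 to 4, again highest in control mouse 2 and lowest in tRA mouse 1. Of 5 marginal zone macrophage markers, 0 were called and 0 had an unadjusted p under 0.05 by either tool, with a median of 0.089 and with Nr1h3, a lipid-sensing nuclear receptor, as the most abundant at 9.59 ± 1.62 CPM (SD, n = 4) in control and 9.30 ± 1.98 CPM (SD, n = 4) in tRA.

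The wider pathway was described by 3 lists, in which edgeR and DESeq2 called 0 genes. The counts at an unadjusted p under 0.05 here and below stand beside 6.49% of all genes tested by edgeR and 4.18% by DESeq2. Of the 9 tested genes of heme breakdown and transport, 1 had an unadjusted p under 0.05 by either tool, and the median log2 fold change was -0.065. That gene was Hmox2, the constitutive heme oxygenase, at 43.1 ± 1.69 CPM (SD, n = 4) in control and 38.8 ± 1.29 CPM (SD, n = 4) in tRA, with all 4 tRA mice below all 4 control mice, beside 3.54% of all genes separated in either direction, and tRA over control was -0.15 on the log2 scale (standard error 0.064, FDR 0.757 by edgeR's quasi-likelihood test, Benjamini-Hochberg adjusted). The most abundant was Lrp1, a receptor that takes up heme bound to hemopexin, with 131 ± 34.3 CPM (SD, n = 4) in control and 128 ± 39.4 CPM (SD, n = 4) in tRA.

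Of the 19 tested genes of iron transport, storage and sensing, 1 had an unadjusted p under 0.05 by either tool, and the median was -0.011. Pcbp1, a chaperone that delivers iron to ferritin, was at 207, 200.2, 224 and 203 CPM in control mice 1 to 4 and at 189, 193, 183 and 179.9 CPM in tRA mice 1 to 4. All 4 tRA mice were below all 4 control mice, a separation that 3.54% of all genes tested showed in either direction. For Pcbp1 the log2 fold change was -0.16 (standard error 0.062, FDR 0.757 by the quasi-likelihood test of edgeR, Benjamini-Hochberg adjusted). The related chaperone Pcbp2, the most abundant of the list, was at 266 ± 6.53 CPM (SD, n = 4) in control and 261 ± 13.9 CPM (SD, n = 4) in tRA, and Ftmt, the mitochondrial ferritin, had 0 counts in all 8 libraries.

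Among 12 regulators and targets of the response to heme and oxidative stress, 1 had an unadjusted p under 0.05 by either tool, and the median was 0.012. Gclc, the catalytic subunit of the enzyme that starts glutathione synthesis, was at 61.1, 56.2, 52.0 and 57.1 CPM in control mice 1 to 4 and at 70.4, 63.5, 67.2 and 65.4 CPM in tRA mice 1 to 4. All 4 tRA mice were above the 4 control mice, where 3.54% of all genes tested were separated in either direction, and tRA over control was 0.23 on the log2 scale (standard error 0.069, FDR 0.757 by edgeR's quasi-likelihood test, Benjamini-Hochberg adjusted). Mafk, a small MAF protein that pairs with BACH1 and NRF2 and the most abundant of the list, was at 155 ± 13.6 CPM (SD, n = 4) in control and 129.9 ± 48.5 CPM (SD, n = 4) in tRA.

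Immediate early and heat shock genes respond within minutes to handling and heat. Their list was chosen with earlier results of these data known, so its counts are a description and not an independent finding. All 11 genes of that list had a negative log2 fold change, with a median of -0.71, and 7 had an unadjusted p under 0.05 by edgeR and 8 by DESeq2, while edgeR called 0 at an FDR under 0.1 and DESeq2 called 2, Jun and Egr1. The summed level was 16471, 15344, 17426 and 13908 CPM in control mice 1 to 4 and 13439.9, 11916, 5609 and 8266 CPM in tRA mice 1 to 4. The tRA mice were all below the control mice in this sum, to which Fos, Fosb, Jun and Junb contribute most, and tRA mice 3 and 4, the lowest for Fth1, had the lowest sums. The heat shock genes did not follow that order: Hspa1b was at 276, 677, 215 and 893 CPM in tRA mice 1 to 4, and all 4 heat shock genes of the list were higher in tRA mouse 4 than in tRA mouse 1. The most abundant gene by the mean over all 8 mice, Fos, was at 3184 ± 216 CPM (SD, n = 4) in control and 2216 ± 1148 CPM (SD, n = 4) in tRA, and no gene of the list was at 0.

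The genes of this list with the lowest p were Jun, Egr1, Dnajb1 and Hsph1. Their log2 fold changes were -0.58, -0.80, -1.03 and -1.09, with standard errors of 0.15, 0.22, 0.28 and 0.32 and FDRs of 0.757 each in the quasi-likelihood test of edgeR, Benjamini-Hochberg adjusted. The tRA mice were all below the control mice for Jun, Egr1 and Dnajb1, beside 3.54% of all genes separated in either direction, while the groups overlapped for Hsph1. The part of the immediate early and heat shock genes in the ferritin values was not tested.

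Neutrophil markers, from cells that also hold ferritin, had 8 of 12 genes with an unadjusted p under 0.05 by edgeR and 9 by DESeq2. This list too was chosen with earlier results of these data known, so its counts are a description. The log2 fold change was negative for 10 genes, the 8 among them, and positive for 2, the chemokine receptor Cxcr2 at 0.39 (standard error 0.19) and Csf3r at 0.25 (standard error 0.23), with a median of -0.70. At an FDR under 0.1 edgeR called 0 of the 12 and DESeq2 called 3, Camp, Ngp and Ltf. The summed level was 1036, 1520.0, 1365 and 1249 CPM in control mice 1 to 4 and 859.7, 853, 759 and 1252 CPM in tRA mice 1 to 4, and the groups overlapped through tRA mouse 4. Camp, Ngp and Ltf, which encode granule proteins of maturing neutrophils, had log2 fold changes of -1.23, -0.92 and -0.88 (standard errors 0.16, 0.18 and 0.19), and S100a9, a calcium-binding protein of neutrophils, had -0.58 (standard error 0.16). The FDR was 0.135 for Camp, the lowest of all genes tested, and 0.757 for Ngp, Ltf and S100a9 by edgeR's quasi-likelihood test, Benjamini-Hochberg adjusted. Csf3r, the receptor for the growth factor G-CSF and the most abundant of the list by its mean over all 8 mice, was at 237 ± 83.1 CPM (SD, n = 4) in control and 282 ± 60.4 CPM (SD, n = 4) in tRA. No marker was at 0, and the part of neutrophils in the ferritin values was not tested.

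In the other lists, edgeR and DESeq2 called 0 genes. Of 9 monocyte markers, 1 had an unadjusted p under 0.05 by either tool, with a median of 0.13. It was Spn, encoding the sialomucin CD43 that T cells also carry, for which tRA over control was 0.28 on the log2 scale (standard error 0.11, FDR 0.757 by edgeR's quasi-likelihood test, Benjamini-Hochberg adjusted). The most abundant monocyte marker, Nr4a1, is also an immediate early gene and was at 1026 ± 93.2 CPM (SD, n = 4) in control and 754 ± 711 CPM (SD, n = 4) in tRA. Of the 13 tested erythroid genes, 0 had an unadjusted p under 0.05 by either tool, and the median was 0.26.

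In the remaining 5 lists edgeR gave 0 genes an unadjusted p under 0.05, and so did DESeq2 except for 2 T cell markers. The median log2 fold change was -0.068 over 8 proliferation markers, 0.027 over 9 tested endothelial and stromal markers, -0.15 over 7 dendritic cell markers, -0.0092 over 6 B cell markers and 0.12 over 6 T cell markers. The most abundant of each were Pcna, Pecam1, Itgax, Cd79a and Trac. Pecam1, an adhesion molecule of endothelial cells, was at 239.8 ± 4.92 CPM (SD, n = 4) in control and 240.1 ± 2.95 CPM (SD, n = 4) in tRA. Cd79a, a subunit of the B cell receptor, was at 1396 ± 110.2 CPM (SD, n = 4) in control and 1271 ± 86.9 CPM (SD, n = 4) in tRA. Pcna, the sliding clamp of DNA replication, was at 150.9 ± 8.61 CPM (SD, n = 4) in control and 129 ± 26.8 CPM (SD, n = 4) in tRA. Itgax, which encodes the integrin CD11c, was at 87.7 ± 17.7 and 83.4 ± 10.8 CPM (SD, n = 4), and Trac, the constant region of the T cell receptor alpha chain, at 284 ± 28.6 and 309 ± 18.8 CPM (SD, n = 4) in control and tRA.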

How the data were processed

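RNA sequencing libraries of total splenocytes (TruSeq v2, all on a single HiSeq2500 lane) were made from 4 tRA and 4 control mice. The authors deposited raw counts per Ensembl gene. The methods of the study name ea-utils, Btrim, Bowtie2, Tophat2 and HTSeq, whereas the submitters' processing notes name STAR 2.5.2b, featureCounts 1.5.1, DESeq2 1.26.0 and GRCm38. The authors' own comparison table, with means, fold changes and p-values from DESeq2, was not used. Counts were filtered by filterByExpr (minimum of 10), scaled by TMM and fitted with edgeR 4.0.16 (limma 3.58.1, R 4.3.3) over all 8 libraries, and genes were called at an FDR under 0.1. The alternatives were DESeq2 1.42.0, RLE scaling, library size alone, no filter, at least 10 counts in every sample, a replicate block, pseudogene counts added, and each mouse left out. Symbols, exon lengths and sequences came from GENCODE M21, which holds 51633 of the 51826 identifiers. Standard errors are the log2 fold change over the square root of the F statistic. Scripts were tested on simulated data. As a check for a library deposited under more than 1 name, pairs within groups were compared, and none agreed within sampling noise (chi-square per degree of freedom from 12.9 to 65.4).

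The members and the 14 gene lists were chosen with earlier results of these data known, and the ribosomal and respiratory genes after seeing the data. Named are the 10 genes, the most abundant gene of each list (mean of 8 mice), its genes with an unadjusted p under 0.05 (if more than 4, the 4 with the lowest p), markers at 0, the 5 genes most like Spic, and genes that share sequence with a member. Figures were drawn with matplotlib 3.10.9 in Python 3.11.15.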

Additional observations from a re-analysis of the deposited data

Results flagged for a closer look

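In 22 groups of 4 mice, given by the 10 genes and the ferritin heavy chain share in either treatment group, 2 values lay far from the other mice of their group by Dixon's ratio, where chance gives about 1 in 20 groups, or 1.1 of 22. Slc11a1 was at 36.5 CPM in tRA mouse 1, with a ratio of 0.902. Fth1 was at 869 CPM in control mouse 4, with a ratio of 0.915.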

How the results depend on the processing

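The count of called members was 0 in edgeR, in DESeq2 and in all other alternatives run, those with a mouse left out included. The count of members with an unadjusted p under 0.05, 0 in edgeR, was 2 (Fth1 and Ftl1) with DESeq2, without a filter, without control mouse 4 and without tRA mouse 1, where 4.18%, 5.34%, 6.35% and 12.6% of all genes had such a p. It was 1 with library size alone (Ftl1, all genes 7.02%), without tRA mouse 2 (Fth1, all genes 4.55%) and without control mouse 1 (Slc11a1, all genes 5.25%). The count of called genes, 0 in edgeR, was 27 with DESeq2, 6 without a filter on low counts, 0 to 3 with a single mouse left out (3 without tRA mouse 4) and 3 without tRA mice 3 and 4. In the last case and in the fit with Spic as a covariate, the alternative was chosen after seeing the data, and tRA mice 3 and 4 had the lowest Fth1 and Ftl1 levels, so the choice of mice itself shrinks their fold changes. Why the counts differ between alternatives was not tested.

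The log2 fold changes of 5 genes were negative in every alternative run, but with single mice left out they ranged from -0.30 to -0.029 for Hmox1, -0.28 to -0.016 for Slc11a1, -0.26 to -0.16 for Fth1, -0.44 to -0.21 for Ftl1 and -0.18 to -0.050 for Tfrc. Others turned sign with single mice left out, and ranged from -0.15 to 0.13 for Spic, -0.10 to 0.17 for Slc40a1, -0.23 to 0.26 for Cd163, -0.19 to 0.12 for Vcam1 and -0.047 to 0.16 for Adgre1. With library size alone Spic was at 0.015 and Cd163 at 0.029, and this scaling moved the median of all genes by 0.029. Without tRA mice 3 and 4, Slc40a1 was at -0.23, Adgre1 at -0.12, Cd163 at -0.36, Vcam1 at -0.25, Fth1 at -0.069 and Ftl1 at -0.11. The ferritin heavy chain share was 0.56 to 2.76 percentage points higher in tRA with single mice left out, and 1.51 with pseudogenes added.

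The labels do not say whether mice of the same number were paired in any way. The correlations of their deviations from the group means were 0.157, -0.023, -0.014 and 0.259. Mice of different numbers were not compared in this way, so these values do not settle whether a pairing exists. With a replicate block, 0 genes and 0 members were called, 1200 genes (7.28%) and 1 member (Fth1) had an unadjusted p under 0.05, and the heavy chain share differed by 1.498 points (exact permutation of signs, p = 0.5). The members had at least 181 counts in each library, and the biological coefficient of variation between mice over all genes was 0.152.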
